A study of Sus scrofa with 9 samples.

Results

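The 9 genes described here encode the proximal machinery of the receptors on myeloid and lymphoid cells whose signal runs through the ITAM, the tyrosine-based activation motif of immune receptors. They are the adaptors TYROBP, FCER1G and LCP2, the kinases SYK, LYN and BTK, the exchange factor VAV1, and the phosphatases PTPN6 and INPP5D. They were chosen by name from the 21357 genes of the deposited expression table, and each of the 9 names occurred there once. The libraries are bulk RNA-seq profiles of abdominal aorta from Tibetan minipigs, a small breed, and the study asked how a high-fat/cholesterol diet changes expression in the vessel wall.

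There were 3 groups of 3 libraries. Each library was taken as a separate pig. The NC pigs ate a normal diet for 24 weeks. The H24 pigs, the study's atherosclerosis group, ate the high-fat diet for 24 weeks, and the H8 pigs ate it for 8 weeks. No group carried an engineered allele or a drug, and all shared strain and tissue labels. The methods describe NC and H24 only, with 3 male pigs sequenced in each, so H8 was taken from the sample labels. For H8 the methods give neither the sex nor whether each library came from a separate pig. No normal-diet group of 8 weeks was analysed here, so in H8/NC and in H24/H8 the diet and the weeks on study cannot be told apart.

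In ITAM signalling, a receptor without a signalling tail of its own pairs with a small adaptor that carries the motif. Src family kinases phosphorylate the motif, Syk docks on it and is activated, and scaffold proteins then gather exchange factors, Tec family kinases and phospholipase C. Inhibitory receptors recruit phosphatases that remove the phosphate from these proteins or from membrane lipids. In the diseased artery this machinery is known mainly from macrophages, while mast cells, NK cells, B cells, neutrophils and platelets also use it.

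Total counts were between 44094263 and 75787978 per library, and the lowest count of any of the 9 genes in any library was 50, against a floor of 3 counts taken as the smallest signal. Pearson's r across genes, whose values do not count as replicates, was 0.964 to 0.969 between NC libraries, 0.941 to 0.968 between H8 libraries and 0.831 to 0.944 between H24 libraries, and no libraries held identical counts. H24 replicate 3 stood apart. The summed FPKM (fragments scaled to transcript length and library size) of 7 smooth muscle genes, which include MYH11 and ACTA2, was 1750 there, against 8190 and 12000 in the other H24 libraries, 10100 to 13700 in H8 and 11900 to 14000 in NC. Outside H24 replicate 3, these levels matched the labelled vessel wall, although the extraction protocol in the labels speaks of an adipose type. Of 5 fat cell genes, ADIPOQ and PLIN1 were at no more than 16.5 FPKM in any library, while FABP4, which endothelial cells also express, was at 47.9 to 139. The sum of the 5 was 49.1 to 157 FPKM. ADIPOQ differed between groups, at 4.44, 14.6 and 6.83 FPKM in NC, 0.0954, 0.106 and 0.0789 in H8, and 7.24, 0.0705 and 0.416 in H24. In bulk tissue, fewer cells of a type and less RNA per cell cannot be told apart.

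All 9 genes were higher in H24 than in NC, with log2 fold changes from 2.94 (LYN) to 5.29 (FCER1G), and every H24 library lay above every NC library for each of them. In H8, 8 of the 9 genes rose against NC by less, with log2 fold changes from 1.46 to 2.60. SYK did not pass the study's thresholds, a log2 fold change over 1 with an unadjusted p under 0.05. In the edgeR fits with 3 libraries a group, no member passed an adjusted p under 0.05. The levels in H8 and H24 were uneven between pigs. H24 replicate 3 was the highest library for all 9 genes, and within H8, replicate 1 was the highest and replicate 2 the lowest for all 9.

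**Figure D1:**
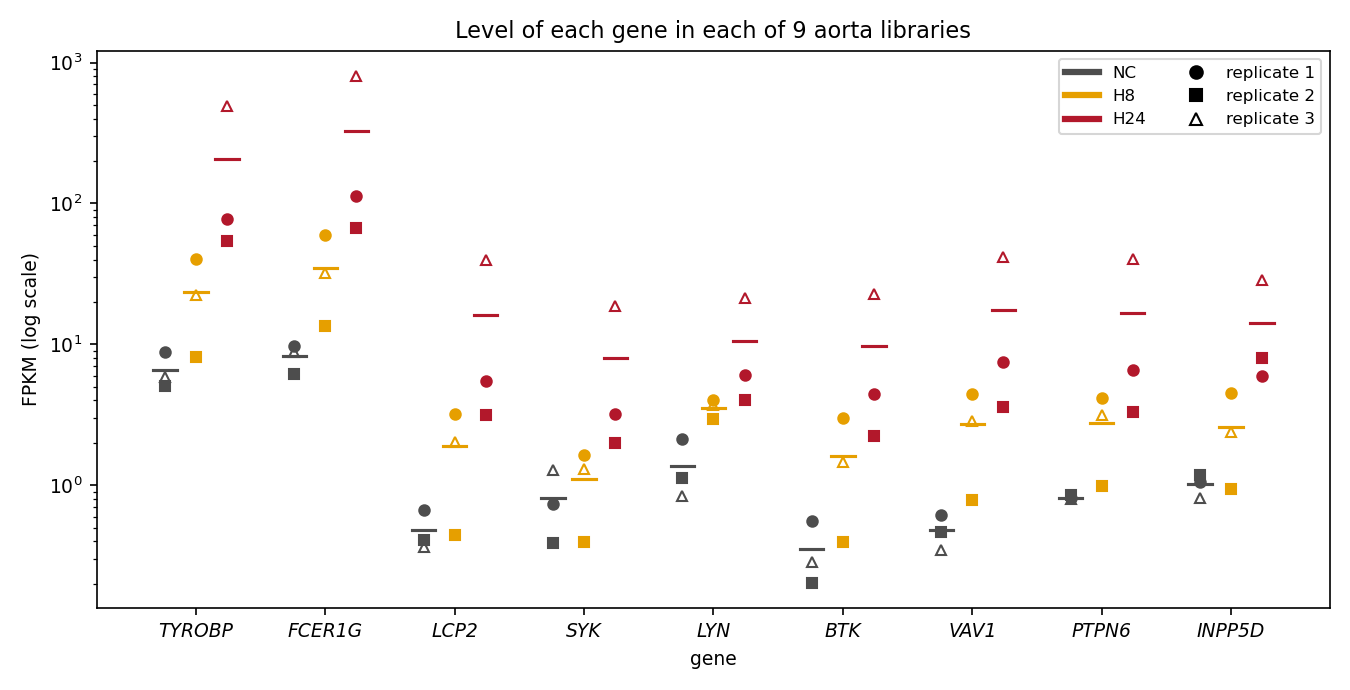
FPKM of the 9 genes (log axis) in the NC, H8 and H24 libraries, with 1 symbol per library and a bar at each group mean (n = 3). For every gene the 3 H24 libraries lie above the 3 NC libraries, and H24 replicate 3 (open triangle) is the highest of all.

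TYROBP (DAP12; Sscrofa11.1 chromosome 6, 45309201 to 45312539, reverse strand) is the transmembrane adaptor of TREM2 and other activating myeloid and NK receptors. Its level was 8.80, 5.05 and 5.90 FPKM in NC replicates 1 to 3, 40.3, 8.15 and 22.5 in H8, and 77.7, 53.8 and 493 in H24. The H24 libraries were above all others, and H8 replicate 2 fell inside the NC range. TYROBP rose in H24/NC by a log2 fold change of 4.97 ± 0.95 (SE; edgeR's quasi-likelihood test, Benjamini-Hochberg adjusted p = 0.132) and in H8/NC by 1.96 ± 0.53 (adjusted p = 0.209).

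FCER1G (chromosome 4, 89242209 to 89246447, reverse strand) encodes the common gamma chain of Fc receptors, which also serves collagen and lectin receptors. It was at 9.79, 6.18 and 8.89 FPKM in NC, 59.7, 13.6 and 31.9 in H8, and 113, 66.5 and 802 in H24. The 3 groups did not overlap. Its log2 fold change was 5.29 ± 1.04 in H24/NC (adjusted p = 0.132) and 2.19 ± 0.48 in H8/NC (adjusted p = 0.187).

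LCP2 (SLP-76; chromosome 16, 53696864 to 53739704, forward strand) is the cytosolic scaffold that Syk phosphorylates and that holds Vav1 and phospholipase C gamma. It was at 0.668, 0.411 and 0.367 FPKM in NC, 3.22, 0.441 and 2.03 in H8, and 5.53, 3.15 and 39.8 in H24. H8 replicate 2 lay within NC, and H8 replicate 1 lay just above H24 replicate 2. The log2 fold change was 5.04 ± 1.06 in H24/NC (adjusted p = 0.132) and 2.07 ± 0.67 in H8/NC (adjusted p = 0.246).

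SYK (chromosome 14, 2056294 to 2162059, forward strand), the kinase that docks on the phosphorylated ITAM, was at 0.742, 0.391 and 1.29 FPKM in NC, 1.65, 0.393 and 1.30 in H8, and 3.21, 1.98 and 18.8 in H24. H8 replicate 2 lay at the low end of NC, H8 replicates 1 and 3 lay above NC, replicate 3 by a narrow margin, and H24 lay above both groups. SYK rose in H24/NC by 3.30 ± 0.94 on the log2 scale (adjusted p = 0.205). In H8/NC its log2 fold change of 0.58 ± 0.59 did not pass (edgeR, unadjusted p = 0.358, adjusted p = 0.69).

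LYN (chromosome 4, 75786099 to 75904235, reverse strand), a Src family kinase that acts on activating and inhibitory motifs alike, was at 2.13, 1.13 and 0.839 FPKM in NC, 4.03, 2.94 and 3.70 in H8, and 6.05, 4.04 and 21.5 in H24. The 3 groups did not overlap, and H8 was the most even group, with a coefficient of variation of 15.6%. LYN rose by 2.94 ± 0.71 in H24/NC (adjusted p = 0.149) and by 1.52 ± 0.34 in H8/NC (adjusted p = 0.187).

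BTK (chromosome X, 82981207 to 83014583, reverse strand), the Tec family kinase that activates phospholipase C gamma, was the lowest of the 9 in NC, at 0.562, 0.204 and 0.286 FPKM. It was at 3.01, 0.396 and 1.46 in H8 and 4.41, 2.23 and 22.8 in H24. H8 replicate 2 lay within NC and H8 replicate 1 within H24. The log2 fold change was 4.79 ± 0.99 in H24/NC (adjusted p = 0.132) and 2.32 ± 0.72 in H8/NC (adjusted p = 0.24).

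VAV1 (chromosome 2, 72326716 to 72391679, reverse strand), the guanine nucleotide exchange factor of blood cells, was at 0.615, 0.468 and 0.349 FPKM in NC, 4.47, 0.787 and 2.84 in H8, and 7.50, 3.62 and 41.9 in H24. All H8 libraries were above NC, and H8 replicate 1 was above H24 replicate 2. In H8/NC no other member changed as much on the log2 scale as VAV1, at 2.60 ± 0.58 (adjusted p = 0.187), and it reached 5.19 ± 0.99 in H24/NC (adjusted p = 0.132).

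PTPN6 (SHP-1; chromosome 5, 63760467 to 63779739, reverse strand), the tyrosine phosphatase recruited by inhibitory receptors, was the most even gene in NC, at 0.808, 0.847 and 0.796 FPKM. It was at 4.15, 0.994 and 3.15 in H8 and 6.63, 3.31 and 40.5 in H24. H8 and H24 both lay above NC and overlapped each other. PTPN6 rose by 4.34 ± 0.96 in H24/NC (adjusted p = 0.133) and by 1.86 ± 0.46 in H8/NC (adjusted p = 0.201). Its annotated span overlaps C12orf57 by 247 bp on the same strand, and C12orf57 had a log2 fold change of -0.02 in H24/NC.

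INPP5D (SHIP1; chromosome 15, 133501092 to 133626644, forward strand), the lipid phosphatase that removes the 5-phosphate from the PI3K product, was at 1.05, 1.19 and 0.807 FPKM in NC, 4.48, 0.941 and 2.38 in H8, and 5.96, 8.05 and 28.6 in H24. It was the only member for which H24 replicate 2 exceeded replicate 1. H8 replicate 2 lay within NC, and H24 lay above both groups. INPP5D rose by 3.79 ± 0.66 in H24/NC, with the smallest standard error of the 9 (adjusted p = 0.132), and by 1.46 ± 0.50 in H8/NC (adjusted p = 0.267).

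In H24/NC, 9 of 9 members rose past the thresholds used in the study, a log2 fold change over 1 with an unadjusted p under 0.05, and none fell, where 9.95% of the 14828 genes tested were called higher. The groups did not overlap for 9 of 9 members, against 12.8% of all genes. The median log2 fold change was 4.79 for the members and 0.01 for all genes. No member passed an adjusted p under 0.05 in edgeR, nor did any of the genes tested (0.0% called higher, lowest adjusted p 0.0545), although 2055 genes had an unadjusted p under 0.05. By DESeq2, all 9 members passed the adjusted threshold, where 5.93% of genes did. TYROBP, LCP2 and PTPN6 were picked as hub genes by the study on these same libraries, so their direction here is not independent evidence. The study also reported these genes as raised by RT-PCR in its atherosclerosis group. It reported its hub genes as higher in human carotid plaque than in adjacent tissue.

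The size of these values rested on H24 replicate 3. Without it, all 9 genes were still called, with log2 fold changes between 1.65 (SYK) and 3.50 (VAV1). The spread fell as well, and 7 of the 9 then passed the adjusted threshold in edgeR, with SYK (adjusted p = 0.23) and LYN (adjusted p = 0.0826) outside it. TYROBP, for example, rose by 3.29 on the log2 scale (adjusted p = 0.00516) in this fit.

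In H8/NC, 8 of 9 members rose and none fell, where 5.11% of the 14336 genes tested were called higher. The groups did not overlap for 4 members, FCER1G, LYN, VAV1 and PTPN6, against 6.91% of all genes. The median log2 fold change was 1.96 for the members and 0.01 for all genes. No member passed the adjusted threshold in edgeR (0.014% of genes called higher), and 7 did in DESeq2 (3.1% of genes), which left out SYK and INPP5D. The count of 8 fell to 5 without H8 replicate 1, with LCP2, BTK and INPP5D no longer called. It stayed at 8 without H8 replicate 2, when VAV1 (adjusted p = 0.047) and PTPN6 (adjusted p = 0.0448) passed the adjusted threshold in edgeR.

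**Figure D2:**
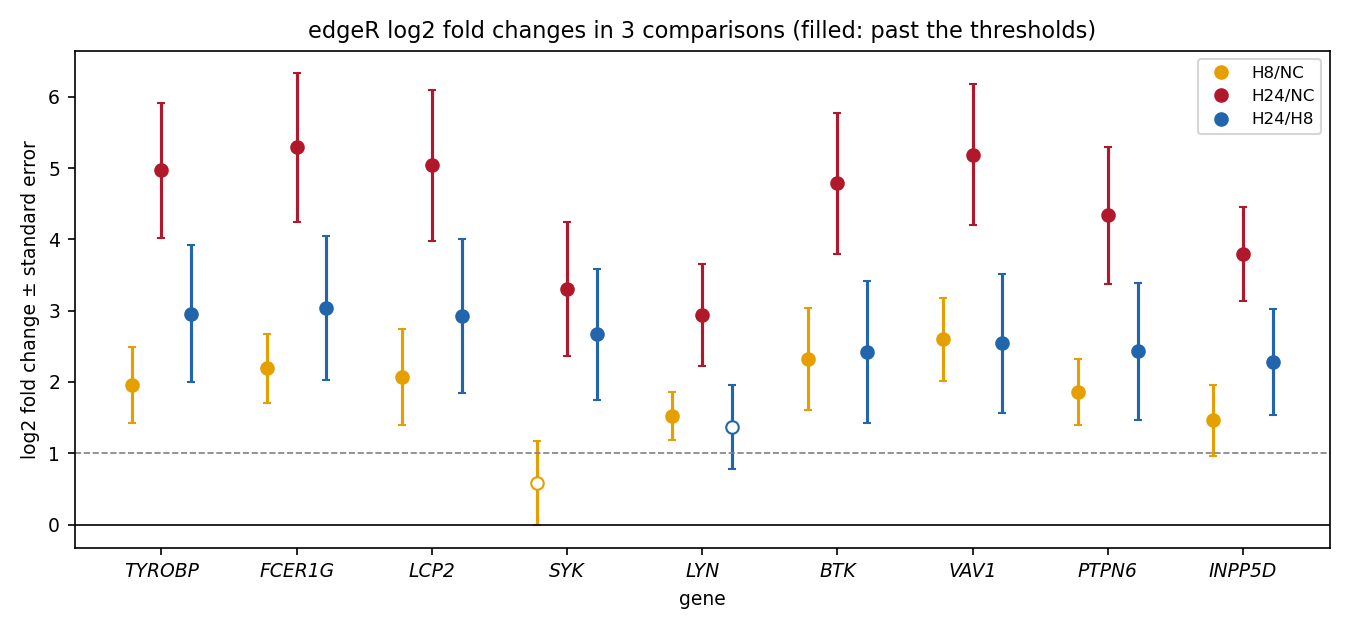
edgeR log2 fold change with its standard error (error bars) for the 9 genes in H8/NC, H24/NC and H24/H8 (3 libraries a group). Filled points passed the thresholds, and SYK in H8/NC (0.58) and LYN in H24/H8 (1.37) are the open points.

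In H24/H8, where the pigs differed in weeks on study as well as in weeks of diet, 8 of 9 members rose, where 7.22% of 14788 genes were called higher. FCER1G had a log2 fold change of 3.04 ± 1.01, TYROBP of 2.96 ± 0.96 and LCP2 of 2.92 ± 1.08. Their unadjusted p in edgeR was 0.0194, 0.0169 and 0.0305, and the adjusted p was 0.341 each. LYN, at 1.37 ± 0.59, did not pass (edgeR, unadjusted p = 0.052, adjusted p = 0.366). TYROBP, FCER1G, SYK, LYN and INPP5D, 5 of the 9, had no overlap between H8 and H24, against 15.5% of all genes. No member passed the adjusted threshold in edgeR (0.0135% of genes called higher), while 5 did in DESeq2 (3.02% of genes). The 3 comparisons share libraries, so their values for a gene are not independent.

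This comparison rested on single libraries. Without H24 replicate 3, only TYROBP remained called, at 1.33 ± 0.554 (edgeR, unadjusted p = 0.0489, adjusted p = 0.466). The other members had log2 fold changes between 0.33 (LYN) and 1.30 (INPP5D). Without H8 replicate 2 or H8 replicate 3, 0 of 9 were called by edgeR's unadjusted p, with log2 fold changes between 1.30 and 2.95. Leaving out H24 replicate 1 or replicate 2 brought the count to 9.

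Per length, the order of the levels was led by the small adaptors in every group. FCER1G came first, with a mean of 8.29 ± 1.88 FPKM in NC, 35.1 ± 23.2 in H8 and 327 ± 412 in H24 (SD, n = 3). TYROBP came second, with 6.58 ± 1.97, 23.6 ± 16.1 and 208 ± 247 FPKM. Their ranges overlapped in each group, and each TYROBP range lay above the next gene in the order without overlap. Among the other 7 genes, neighbours in the order overlapped in every group, from LYN (1.37 ± 0.678) to BTK (0.350 ± 0.187) in NC and from VAV1 (17.7 ± 21.1) to SYK (8.00 ± 9.39) in H24. SYK was the lowest of the 9 by mean FPKM in both H8 and H24.

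The genes moved together from library to library, but not equally. Each gene was centred on its NC mean as log2(FPKM + 0.1) and compared with the mean of the other 8 over the 9 libraries. PTPN6 stayed closest (root-mean-square difference 0.26), followed by BTK (0.32) and LCP2 (0.33). SYK was farthest (1.05) and LYN next (0.87). The ratios within a library, which do not depend on its depth, place these differences.

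BTK/SYK was 0.756, 0.522 and 0.221 in NC, 1.83, 1.01 and 1.12 in H8, and 1.38, 1.12 and 1.21 in H24. All 6 libraries of the high-fat diet were above all NC libraries, by a mean log2 difference of 1.47 in H24/NC and 1.52 in H8/NC. PTPN6/SYK was 2.52, 2.53 and 2.42 in H8 against 1.09, 2.17 and 0.616 in NC, a log2 difference of 1.14. In H24 it was 2.07, 1.67 and 2.15, which overlapped NC.

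LYN/SYK was lower in H24 (1.89, 2.04 and 1.14) than in H8 (2.44, 7.48 and 2.84), by 1.19 on the log2 scale (-1.19). LCP2/VAV1 was 1.09, 0.879 and 1.05 in NC and lower in H8, at 0.722, 0.560 and 0.715, with a log2 difference of -0.60. FCER1G/TYROBP was between 1.11 and 1.67 in all 9 libraries, although each gene varied over a far wider range. In H24/H8, PTPN6/SYK (-0.35) and LCP2/VAV1 (0.36) were also without overlap. Each difference without overlap had p = 0.1 in the exact permutation test (two-sided), the smallest that 3 against 3 libraries allow, and the adjusted p was 0.257 over the 18 tests of 6 ratios.

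Of 4 members, the more widely expressed relative was read in the same libraries, pairs that were chosen after the values were seen. PTPN11 (SHP-2), the relative of PTPN6, was at 19.8, 19.6 and 19.9 FPKM in NC, 20.4, 24.7 and 16.3 in H8, and 26.4, 10.1 and 16.1 in H24. PTPN6/PTPN11 was 0.0408, 0.0433 and 0.0399 in NC and 0.251, 0.326 and 2.52 in H24, and PTPN6 exceeded PTPN11 in H24 replicate 3 alone. INPPL1 (SHIP2), the relative of INPP5D, was between 33.4 and 48.2 FPKM in all libraries, and INPP5D/INPPL1 went from 0.0218, 0.0291 and 0.0184 in NC to 0.164, 0.172 and 0.640 in H24.

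VAV1/VAV2 was 0.282, 0.0920 and 0.124 in NC, 1.37, 0.214 and 1.33 in H8, and 1.62, 0.634 and 11.1 in H24. LYN/SRC was 0.0953, 0.0602 and 0.0438 in NC, 0.222, 0.194 and 0.223 in H8, and 0.454, 0.210 and 1.59 in H24. All 4 ratios were higher in H24 than in NC without overlap, by 3.84, 3.53, 3.93 and 3.08 on the log2 scale for PTPN6, INPP5D, VAV1 and LYN. LYN/SRC was the only one of them to lie above NC in all H8 libraries. Each difference in H24/NC had p = 0.1 in the exact permutation test (two-sided), with an adjusted p of 0.171 over 12 tests.

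**Figure D3:**
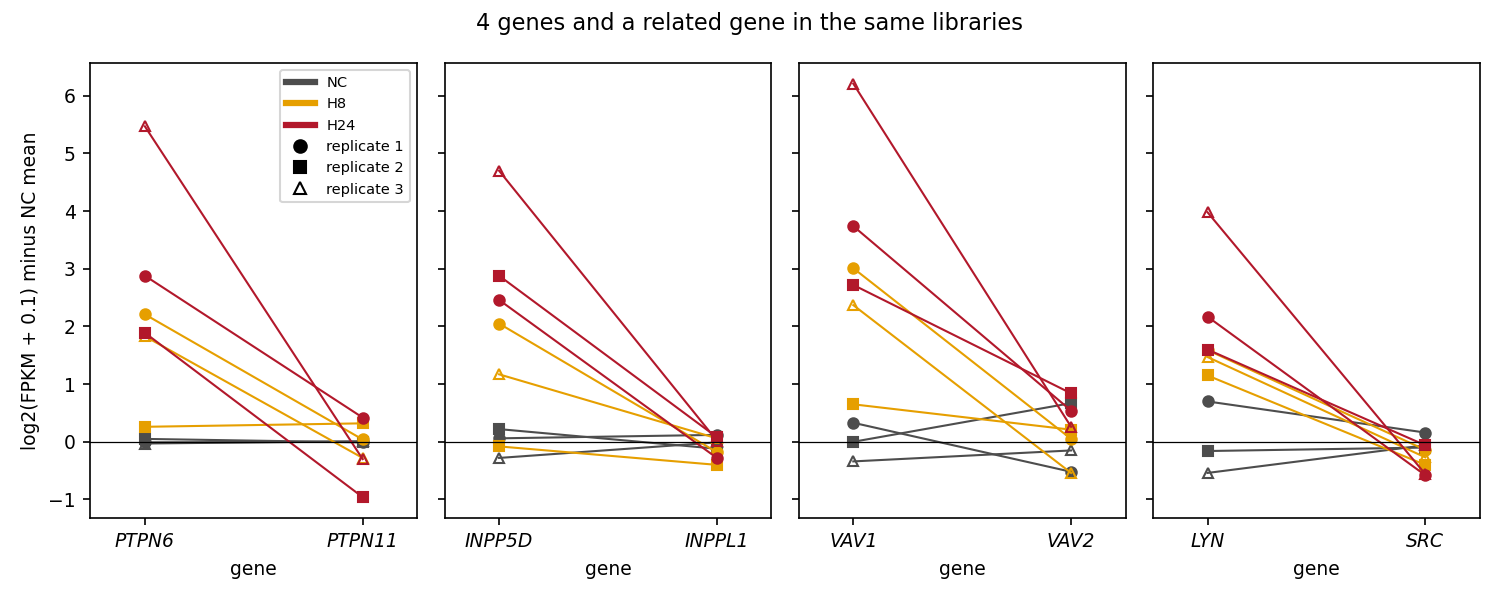
Level of 4 genes (left in each panel) and of a more widely expressed relative (right), as log2(FPKM + 0.1) minus the NC mean, with 1 line per library. The H24 lines start between 1.6 and 6.21 and end between -0.96 and 0.84, and INPPL1 stays between 33.4 and 48.2 FPKM while INPP5D goes from 0.807 to 28.6.

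The other genes of the pathway were read from 5 lists with 90 genes, of which 73 were found in the table. In H24/NC, 42 of the 69 tested rose and none fell, where 9.95% of all genes were called higher, and 32 rose without H24 replicate 3. In H8/NC 19 of 59 rose (5.11% of all genes), and 11 without H8 replicate 1. In H24/H8 33 of 69 rose (7.22% of all genes), but 12 without H24 replicate 3 and 13 or 14 without H8 replicate 2 or 3. In the list of ITAM-bearing or ITAM-coupled receptors and chains, 9 of 16 tested rose in H24/NC (median log2 fold change 3.35, 8 called without H24 replicate 3) and 4 of 13 in H8/NC. The 9 include HCST (DAP10), an adaptor of NK receptors that is not an ITAM chain. TREM2, a lipid-sensing receptor that signals through TYROBP, was at 1.03, 0.281 and 0.337 FPKM in NC, 11.3, 0.901 and 5.65 in H8, and 9.92, 6.44 and 84.2 in H24, and rose by 5.92 ± 1.23 in H24/NC and 3.54 ± 0.91 in H8/NC (edgeR, adjusted p = 0.132 and 0.206). CLEC7A (Dectin-1), a fungal glucan receptor, rose in H8/NC by 3.95 on the log2 scale. The T cell receptor chain CD3E was highest in H24 replicate 2 (15.8 FPKM, against 1.22 and 4.98 in replicates 1 and 3), unlike the 9 members. Its partner chains CD3D (0.223, 0.267 and 1.19 FPKM in H24) and CD3G (0.155, 0.374 and 0.573) were highest in replicate 3, as the members were. CD247, a further chain, was nearly even in H24 (1.66, 1.89 and 1.77). CD79A, a chain of the B cell receptor, was at 5.46, 4.44 and 5.40 FPKM in NC, 2.42, 1.25 and 3.59 in H8, and 9.67, 9.38 and 11.3 in H24, without overlap between the groups. Its log2 fold change of 0.97 ± 0.20 in H24/NC (edgeR, adjusted p = 0.132) missed the fold threshold alone, and it rose by 1.91 ± 0.35 in H24/H8 (adjusted p = 0.336). CD79B, the partner chain of CD79A, did not rise with it. CD79B was at 0.184, 0.569 and 0.106 FPKM in NC and 0.117, 0.0713 and 0.0192 in H24. Its log2 fold change of -2.1 in H24/NC did not pass (edgeR, unadjusted p = 0.0666).

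Of the Src, Syk and Tec family kinases and CSK, 7 of 12 rose in H24/NC (6 without H24 replicate 3) and 1 of 9 in H8/NC. FGR and TEC were among those that rose in H24/NC, while in H8/NC FGR (0.30) and TEC (0.01) had log2 fold changes near 0. CSK, the kinase that holds Src family members inactive, was at 10.7, 10.9 and 8.97 FPKM in NC and 12.7, 13.7 and 28.5 in H24 and did not pass. SRC did not pass in any comparison.

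Downstream adaptors and effectors rose in 15 of 22 in H24/NC (11 without H24 replicate 3) and 8 of 22 in H8/NC. The named ones were the PI3K regulators PIK3R5 and PIK3AP1, the membrane scaffold LAT2 and the Rac exchange factor DOCK2, which rose in both comparisons. LAT2 was at 2.26, 1.60 and 2.34 FPKM in NC and 17.0, 8.38 and 127 in H24. Of 15 inhibitory receptors listed, only 6 were found. Of those tested, 4 of 5 rose in H24/NC (3 without H24 replicate 3) and 2 of 4 in H8/NC. LAIR1, a collagen receptor that recruits PTPN6, went from 0.902, 0.683 and 0.818 FPKM in NC to 7.23, 4.23 and 47.1 in H24, while PECAM1, an endothelial and platelet receptor, was at 26.9, 74.5 and 37.7 in NC and 56.3, 43.4 and 28.7 in H24.

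Of the phosphatases and inhibitory adaptors, 7 of 14 rose in H24/NC and 4 of 11 in H8/NC. The count of 7 fell to 4 without H24 replicate 3, and 3 passed DESeq2's adjusted p. DOK3 and DOK2, adaptors that dampen Syk and Ras signalling, UBASH3B, a phosphatase that acts on Syk, and PTPRC (CD45) rose in both. DOK3 was at 0.0896, 0.188 and 0.0356 FPKM in NC, 1.78, 0.430 and 1.02 in H8, and 3.59, 2.42 and 32.3 in H24, without overlap between the groups. PTPN11, PTPN12, PTPN2, PTPN1, PTPRJ, INPPL1 and DOK1, the ones that did not pass, all had NC levels of at least 4.19 FPKM.

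**Figure D4:**
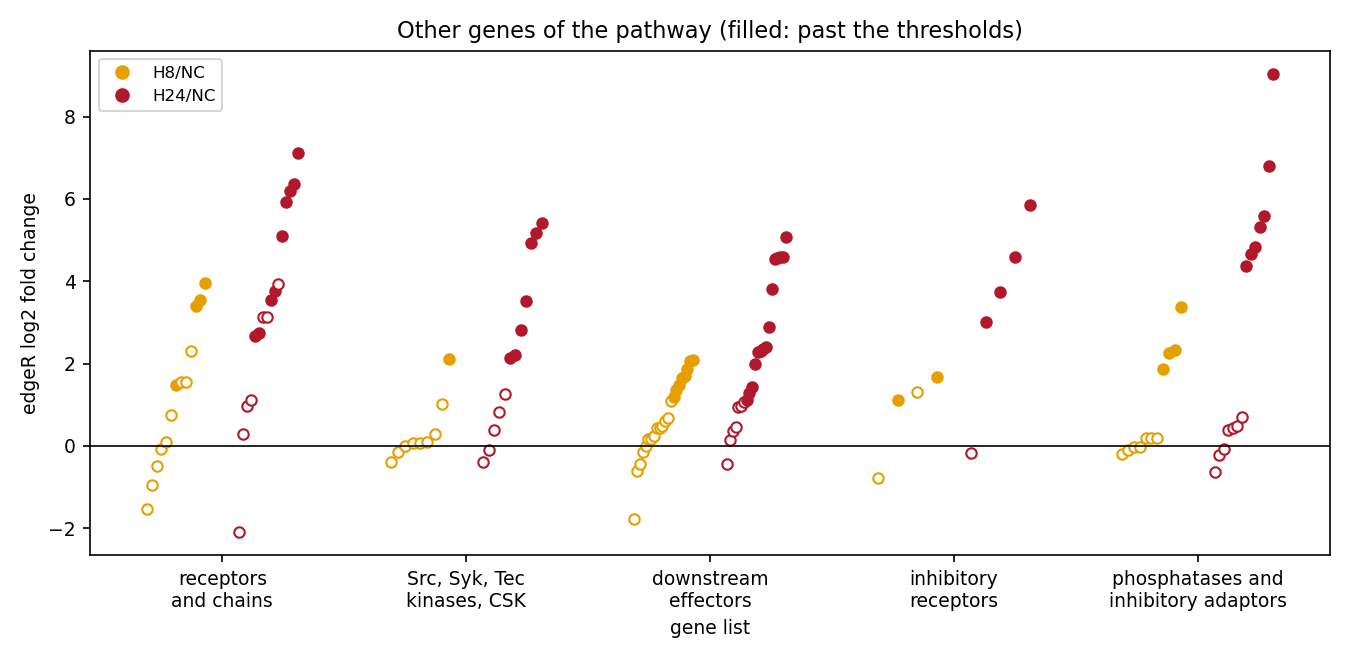
edgeR log2 fold changes in H8/NC and H24/NC of the tested genes of 5 lists of the pathway, with 1 point per gene and filled points past the thresholds. In H24/NC 42 of 69 are filled and none below 0, and in H8/NC 19 of 59 are filled.

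Markers of macrophages and monocytes moved with the 9 members, and their part in the result was not tested. All 12 were called higher in H24/NC (9.95% of all genes) and 7 of 11 in H8/NC (5.11% of all genes). In H24/NC, 11 were called without H24 replicate 3, and 8 passed DESeq2's adjusted p. Their summed level was 28.4 to 36.7 FPKM in NC, 37.8 to 206 in H8 and 201 to 2170 in H24. The mean of this list, as log2(FPKM + 0.1) minus the NC mean, was 2.14, 0.16 and 1.29 in H8 and 2.94, 2.07 and 5.53 in H24, where the mean of the members was 2.32, 0.27 and 1.68 and 3.03, 2.38 and 5.51. CD68, a lysosomal protein of macrophages, was at 39.6, 5.40 and 23.5 FPKM in H8 and 65.3, 38.7 and 616 in H24.

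Not every macrophage marker rose at 8 weeks. CD14 (0.48), CD163 (1.27), CSF1R (1.04) and MRC1 (0.17) had log2 fold changes in H8/NC that did not pass. All of them rose in H24/NC, by 3.35, 3.80, 3.46 and 2.09. For MRC1 the H24 and NC libraries overlapped. PTPN6 followed the mean of the list most closely (root-mean-square difference 0.21 over 9 libraries) and SYK least (0.79). In H8 and H24, SYK was below the list mean in all 6 libraries, by 0.54 to 1.07, and FCER1G above it in all 6, by 0.58 to 1.07.

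Other blood cell lists moved less evenly, and their part was not tested either. For these and the lists that follow, 9.95% of all genes were called higher in H24/NC and 5.11% in H8/NC. T cell markers were called higher in 4 of 6 in H24/NC (2 without H24 replicate 3), with a summed level of 0.165 to 0.400 FPKM in NC and 3.25 to 17.1 in H24. NK cell markers rose in 3 of 4 (1 without H24 replicate 3), and NKG7 made up nearly all of their summed level in H24 (21.0 to 344 FPKM), at 27.2, 19.8 and 341, while NCR1 was at 0 in all NC libraries and at no more than 0.684 in any library. Mast cell markers rose in 3 of 4 in H24/NC (2 without H24 replicate 3) and 0 of 2 in H8/NC. Their summed levels were 0.549 to 1.58 FPKM in NC, 0.525 to 1.19 in H8 and 2.28 to 10.3 in H24. Of the neutrophil list, 3 of 4 rose in H24/NC (1 without H24 replicate 3), with summed levels of 0.445 to 0.495 FPKM in NC, 2.25 to 4.38 in H8 and 4.90 to 59.9 in H24. The H8 sum was nearly all CSF3R (4.32, 2.21 and 3.65 FPKM), and S100A8 was at 0 in all H8 libraries.

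B cell markers rose in 1 of 3 in H24/NC, CD22. Their summed level was 5.23 to 6.26 FPKM in NC, 1.63 to 4.48 in H8 and 10.3 to 20.3 in H24, mostly CD79A, while MS4A1 and PAX5 were at no more than 0.190 FPKM in any library. None of the 3 platelet markers tested passed in edgeR, and their summed level was 11.7 to 13.7 FPKM in NC and 9.26 to 11.6 in H24. None of the 6 endothelial markers passed, at 39.2 to 92.4 FPKM in NC and 48.0 to 82.0 in H24. Of the fibroblast list, 2 of 5 rose in H24/NC and 1 of 5 in H8/NC. Of the adipocyte list, 1 of 5 rose in H24/NC, and 3 of 4, ADIPOQ, PLIN1 and CIDEC, fell in H8/NC, in all 3 H8 libraries. Of 14336 genes tested there, 326 were called lower. The log2 fold changes of the 3 were -6.39, -7.57 and -1.64 (edgeR, adjusted p = 0.0206, 0.0906 and 0.232). FABP4, at -0.06, did not pass. The part of fat tissue in the H8/NC values was not tested. The 7 smooth muscle markers had log2 fold changes of -1.28 to -0.28 in H24/NC and none passed.

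**Figure D5:**
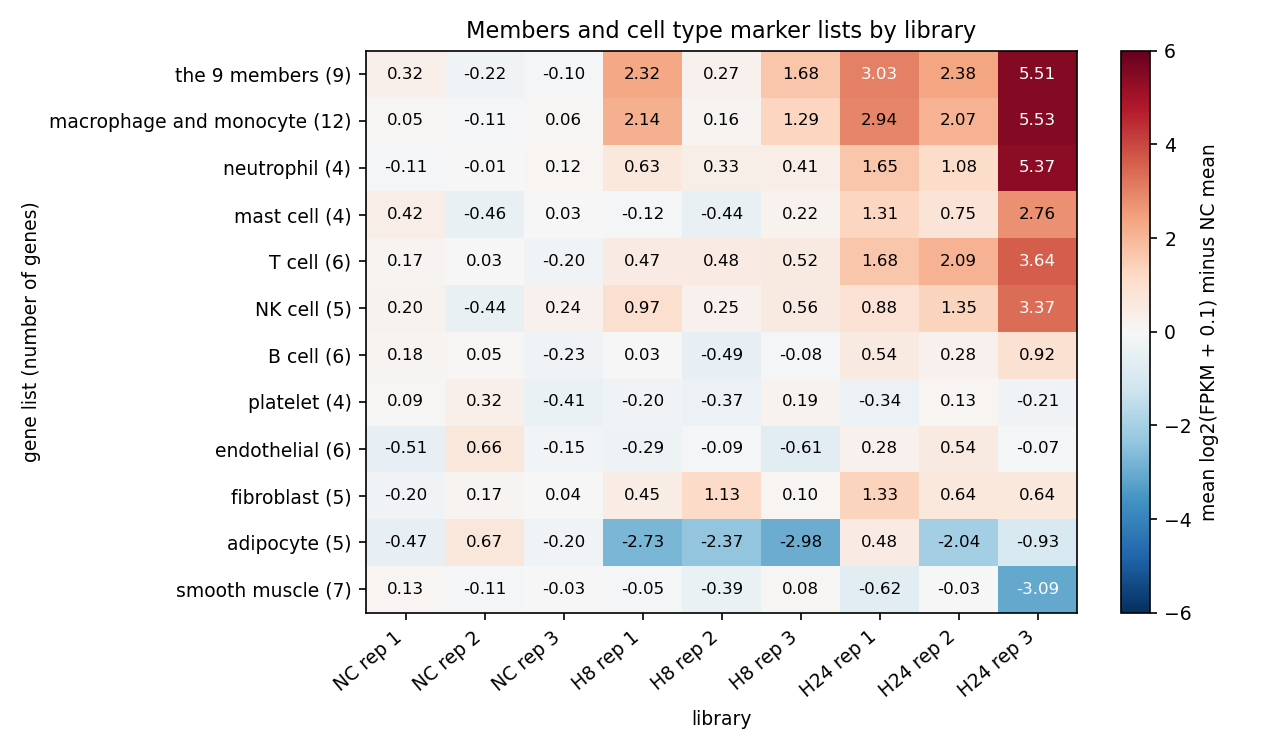
Mean of log2(FPKM + 0.1) minus the NC mean over the 9 members and over 11 cell type marker lists (number of genes in brackets), by library. The members and the macrophage list have nearly the same profile, up to 5.51 and 5.53 in H24 replicate 3, where the smooth muscle list is at -3.09.

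Among 10190 other named genes with a mean of at least 1 FPKM, genes near to the mean profile of the 9 over the 9 libraries included ARHGAP4 (root-mean-square difference 0.16), MYCL (0.18), LAIR1 (0.19) and RPS6KA1 (0.19). In H24 replicate 3 they stood between 5.06 and 5.72 on the log2 scale above NC, against 5.51 for the members. ARHGAP4 encodes a GTPase-activating protein, MYCL a transcription factor of the Myc family and RPS6KA1 a ribosomal S6 kinase.

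The 9 genes lie on 8 chromosomes, with FCER1G and LYN both on chromosome 4. Of their 9 nearest neighbours in the table, 1 rose and 1 fell in H24/NC, where 9.95% of all genes were called higher. HCST (DAP10), an adaptor of NK receptors, lies 150 bp from TYROBP on the other strand and rose by 3.55 on the log2 scale, at a mean of 0.170 ± 0.153 FPKM in NC and 2.43 ± 1.87 in H24 (SD, n = 3). DIRAS2, 87532 bp from SYK, had a log2 fold change of -2.31. In the KEGG annotation of the table, 7 of the 9 are in the Fc epsilon RI pathway, 6 in the B cell receptor pathway, 6 in NK cell mediated cytotoxicity and 5 in platelet activation.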

How the data were processed

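RNA of the abdominal aorta was sequenced by the authors as paired-end poly(A) libraries. Reads were mapped with HISAT 2.0 to the pig genome Sscrofa11.1 and assembled with StringTie 1.3.0, and the annotation release is not given in the sources used here. The submitters' processing notes also list Bowtie 0.12.2 and the mouse build mm8, while the gene IDs of the table are those of pig. The authors deposited 1 table with an FPKM value and an estimated count per gene and library. How the deposited expected counts were derived is not stated, and they were whole numbers and used as such. All FPKM and count columns were used.

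The 3 comparisons were fitted to these counts in R 4.3.3 with edgeR 4.0.16 (quasi-likelihood test, two-sided, TMM scaling). Genes needed a mean of at least 0.1 FPKM over the libraries compared. A gene was called at a log2 fold change beyond 1 and an unadjusted p under 0.05, the thresholds of the study, and the adjusted p-value (Benjamini-Hochberg, every tested gene) stands beside it. Each fit used the libraries of its 2 groups, and the script was tested on simulated data. Per-library profiles used log2(FPKM + 0.1). Depth was 44094263 to 75787978 counts per library, and a floor of 3 counts covers counting error only. Python 3.11.15 with scipy 1.17.1 computed the exact permutation tests and matplotlib 3.10.9 the plots.

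The members and lists were chosen with earlier results of these data known. Of each pathway list, at most 4 genes with a mean of at least 1 FPKM and the smallest p in H24/NC were named. Other list genes (the relatives SRC and VAV2, the phosphatases that did not pass, HCST as a neighbour of TYROBP and single markers) were named after their values were seen. GP6, CD72 and PTPN2 carry no name in the table and were named through an Sscrofa11.1 gene table. Alternatives were other scalings and filters, 1 fit of all 9 libraries, a replicate block, DESeq2 1.42.0, limma 3.58.1 on log2 FPKM and leaving out each library. Promoter and protein sequences were not analysed here. Some genes of the lists are not reported here.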

Additional observations from a re-analysis of the deposited data

Results flagged for a closer look

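The change at 24 weeks exceeded the change at 8 weeks for all 9 genes. The difference of the effects against the shared NC group, which is the H24/H8 contrast, passed the unadjusted p in edgeR's quasi-likelihood test for 8 of them, all but LYN (1.37). Of all genes tested, 7.22% were called higher in this contrast. The log2 difference was 2.96 for TYROBP, 3.04 for FCER1G, 2.92 for LCP2, 2.67 for SYK, 2.42 for BTK, 2.54 for VAV1, 2.43 for PTPN6 and 2.28 for INPP5D. The adjusted p-values were 0.341 to 0.355, so none passed the correction. All 3 H24 libraries were above all 3 H8 libraries for TYROBP, FCER1G, SYK, INPP5D and LYN, against 15.5% of all genes. The groups overlapped for LCP2, BTK, VAV1 and PTPN6. Without H24 replicate 3, TYROBP alone passed the unadjusted p, and without H8 replicate 2 or replicate 3 none of the 9 did.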

How the results depend on the processing

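Over 15 other fits per comparison and the adjusted p, no member changed direction. In H24/NC, 9 members were called in every fit. Genes called in all (1700) came to 855 with limma on log2(FPKM + 1) and to 1132 to 2251 when a library was left out. In H8/NC, the 8 members called became 5 with all 9 libraries in 1 fit and 3 with limma on log2(FPKM + 1), and 5 to 8 when a library was left out. All genes called (1059) became 618 at a mean FPKM of at least 1 and 343 with limma on log2(FPKM + 1), and pathway genes (19) became 7 at a mean FPKM of at least 1, where fewer genes are tested, 8 in 1 fit, 8 with limma on log2(FPKM + 0.1), 1 with limma on log2(FPKM + 1) and 11 to 19 when a library was left out. In H24/H8, the 8 members called became 4 with limma on log2(FPKM + 1) and 0 to 9 when a library was left out, all genes (1519) became 694 and 804 to 2091, and pathway genes (33) became 14 and 12 to 36. Where no reason is given, the cause was not tested. By the adjusted p in edgeR, members and pathway genes called were 0 in each comparison, and all genes 0, 4 and 2. The share of calls that were higher moved from 69.2% to 55.7% in H8/NC and from 70.3% to 83.3% in H24/H8 with total count scaling, which moved the median log2 fold change of all genes to -0.13 and 0.24. It was 47.3% in H8/NC with limma on log2(FPKM + 0.1) and 58.9% on log2(FPKM + 1). With the replicate block, members called were 9, 8 and 8 and genes 1364, 950 and 1275. The shared replicate numbers were not taken as pairs of pigs. In H24/NC, H8/NC and H24/H8, 0, 0 and 1 of 3 same-numbered pairs had a correlation of deviations over 0.1. The best match was the library of the same number in 1, 2 and 1 of 3. With 3 libraries a group, these values cannot show whether the pigs were matched. Ratios from estimated counts, an alternative chosen after seeing the data, kept every direction. The lowest count of any member in a library was 50, and whether depth or the spread between pigs limits a value was not tested.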
